A study of Mus musculus with 2 samples.

Results

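The genes described here build the cilium, the hair-like projection of the cell surface that exists as a single, immotile primary cilium on most cells and as bundles of beating motile cilia on ependymal cells. They were found by symbol in 1 pooled single-cell matrix, where 40 of 28692 genes matched. Of these, 11 belong to the motile cilium or its gene programme (Foxj1, Ccdc153, Tmem212, Dynlrb2, Pifo, Rsph1, Ccdc113, Capsl, Mlf1, Meig1 and Fam183b), and 22 to cargo transport in any cilium: 3 genes of intraflagellar transport complex A, 11 of complex B and 8 Bardet-Biedl syndrome (Bbs) genes. Another 2 are tectonics of the transition zone (Tctn1 and Tctn3), 4 are ciliary Hedgehog genes (Evc, Evc2, Kif7 and Gpr161), and 1 is the antisense RNA Ift88os. Counted as measured, with at least 30 unique molecular identifiers (UMIs, one per captured transcript), were 39 of the 40; Ift88os had 1 UMI.

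The study grew neural stem cells from the subventricular zone of postnatal C57/Bl6J mice and sequenced them 3 days after the growth factors EGF and FGF were removed. The labels name 1 library treated with 1 µM of the oxysterol 20HC and 1 control library given the vehicle DMSO. Barcodes carry only the endings 1 and 2, which no label or file ties to a library, so no 20HC comparison was made and the endings are called barcode set 1 and barcode set 2. The control library's label text also mentions the 20HC treatment; its group came from its title. The 2 sets shared 48 barcode sequences. The kept cells number 13078, of which 9680 were in set 1 and 3398 in set 2, with medians of 2829 and 2888.5 UMIs. With 1 pooled sample there are no replicates and no tests; all intervals are 95%, exact Poisson for levels and exact Clopper-Pearson for shares, and cover counting error only.

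Cilia are typically built by intraflagellar transport, in which trains holding complexes A and B carry cargo. They move outward with a kinesin motor, a step tied to complex B, and return with a dynein, a step tied to complex A. The BBSome, assembled with the help of chaperonin-like Bbs proteins, rides these trains and moves membrane proteins. Motile cilia add an axoneme with dynein arms and radial spokes, a programme switched on by the transcription factor FOXJ1 together with RFX factors. In the ventricle wall, ependymal cells carry many motile cilia, while neural stem cells, which resemble astrocytes, carry a primary cilium through which Hedgehog signals are read.

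Cells were clustered and each cluster was named only as resembling a type. Ependymal-like cells numbered 53 (38 in set 1 and 15 in set 2); 10 of 12 ependymal markers, none of them among the genes described here, were called higher in them. Their number depends on the settings: 153 with called doublets kept, 356 at a finer clustering (resolution 1.0) and 403 with 15 components, and in these wider clusters 11 of 11 motile genes were still called higher, with 15, 13 and 14 transport genes. The transport median log2 ratio was smaller in them, at 0.95, 0.67 and 0.73, against 1.16 in the 53 cells. The share of all genes called was not computed for these wider clusters. In the 53 cells choroid plexus markers summed to 57.1 CPM (a gene's UMIs per 1000000 UMIs of the class), against 8.83 CPM in other cells, with 4 of the 8 at 0, and the median mitochondrial share was 4.07%, against 3.04% in other cells; the part of either in the results was not tested. Astrocyte-like cells numbered 6977, progenitor-like 1650, cycling-like 1142, OPC-like (resembling oligodendrocyte precursors) 672, fibroblast-like 223 and microglia-like 36. The other cells lay in 3 unnamed clusters. All 11 motile genes were among the genes used for clustering and no transport gene was, so motile levels across classes are a description of how the classes were drawn.

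**Figure D1:**
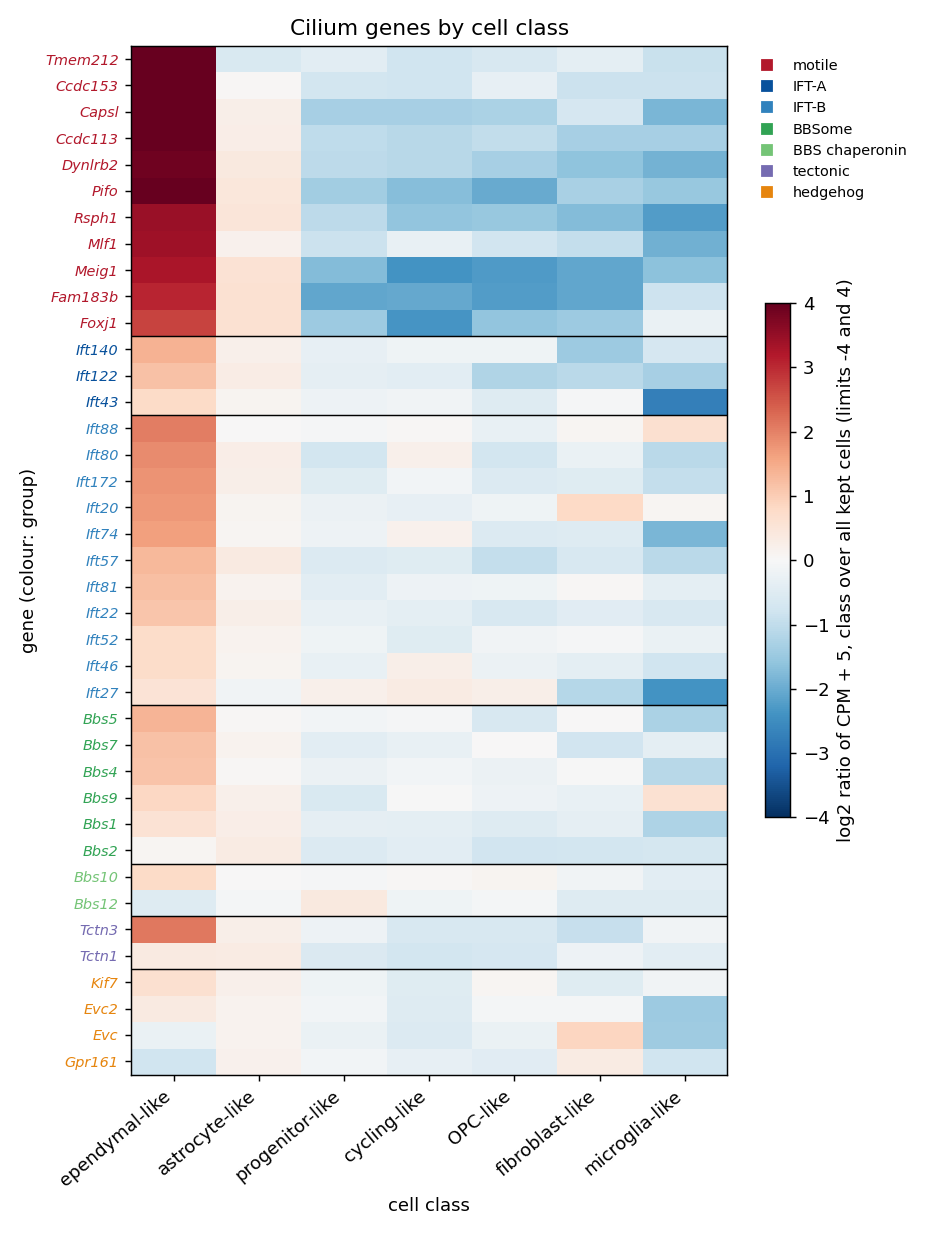
Level of each measured cilium gene (rows, coloured by group) in each cell class (columns), as the log2 ratio of CPM + 5 in the class over that in all kept cells. The motile genes form a dark block in ependymal-like cells and the transport genes a paler one.

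Ependymal-like cells had far more motile cilium RNA and moderately more transport RNA than the other cells. The 11 motile genes summed to 6424 CPM (interval 6035 to 6832) in ependymal-like cells, against 428 CPM in other cells. The 22 transport genes summed to 2594 CPM (2348 to 2858) in ependymal-like cells, against 1058 CPM in other cells. The 4 ciliary Hedgehog genes summed to 31.7 CPM (10.3 to 74) in ependymal-like cells, against 27.3 CPM in other cells, which lies inside the interval.

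A gene was called higher or lower when its CPM differed at least 1.5-fold and the same way in set 1 and in set 2, with the other cells' CPM outside the class's interval. Of all 13041 genes measured, 10.9% were called higher in ependymal-like cells and 5.09% lower. Of the motile genes 11 of 11 were called higher, with a median log2 ratio of 3.97 (3.91 in set 1 and 3.82 in set 2). Of the transport genes 13 of 22 were called higher and 0 lower, with a median of 1.16 (1.11 and 1.17), and the median over all genes was -0.06. No motile gene fell as low as a transport gene: motile ratios ran from 2.72 to 7.01 and transport ratios from -0.52 to 2.08.

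Among the motile genes, Tmem212, a membrane protein gene known as an ependymal marker, had 850 CPM in ependymal-like cells of set 1 and 548 CPM in those of set 2, against 1.24 and 0.493 CPM in the other cells of these sets. Ccdc153, a coiled-coil protein gene of ciliated cells, had 323 and 324 CPM in ependymal-like cells, against 3.08 and 1.97 CPM in other cells. Capsl, which encodes a calcium-binding calcyphosine-like protein, had 604 and 648 CPM in ependymal-like cells, against 9.66 and 11.3 CPM in other cells. These 3 had the highest ratios, and each set alone showed them. Foxj1, the transcription factor of the motile programme, stood at the other end with 349 and 723 CPM in ependymal-like cells, against 60.9 and 68.7 CPM in other cells, a log2 ratio of 2.72. Meig1, known for its role in sperm formation, had 1191 and 873 CPM in ependymal-like cells, against 110 and 93.7 CPM in other cells. Between these extremes lay Rsph1, a radial spoke head protein (log2 ratio 3.50), Dynlrb2, a dynein light chain of the roadblock type (3.97), Pifo (4.09), Ccdc113 (4.45), Mlf1 (3.44) and Fam183b (3.09).

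The 3 complex A genes were all called higher. Ift140 had 38.0 CPM (14.0 to 82.8) in ependymal-like cells, against 11.3 CPM in other cells, Ift122 had 114 CPM (67.7 to 180) against 47.7 CPM, and Ift43 had 171 CPM (113 to 249) against 99.4 CPM. Of the 11 complex B genes 8 were called higher, with a median log2 ratio of 1.30. Ift88, a core subunit needed to build cilia, was highest by ratio, with 34.0 CPM in ependymal-like cells of set 1 and 99.7 CPM in those of set 2, against 8.35 and 7.69 CPM in other cells, but rested on 8 UMIs in ependymal-like cells. Ift20, a small subunit also found at the Golgi, was the best counted, with 105 UMIs and 638 and 748 CPM in ependymal-like cells, against 196 and 198 CPM in other cells. Ift74, a core subunit that with Ift81 binds tubulin, had 349 CPM in ependymal-like cells of each set, against 105 and 111 CPM in other cells. Ift80 (log2 ratio 1.91), Ift172 (1.81), Ift57 (1.30), Ift81 (1.21) and Ift22 (1.12) were called too. Ift27, a small GTPase subunit, had 273 CPM in ependymal-like cells (197 to 367), against 186 CPM in other cells, under the 1.5-fold limit. Ift46 had 179 CPM in ependymal-like cells of set 1 but 49.9 CPM in those of set 2, against 83.2 and 91.4 CPM in other cells, and Ift52 had 57.1 CPM (26.1 to 108), against 32.4 CPM; neither met the rule.

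The Bbs genes were sparse. Bbs4 (7 UMIs in ependymal-like cells, log2 ratio 1.15) and Bbs5 (4 UMIs, 1.36), both BBSome subunits, were called higher; the other 6 had 0 to 4 UMIs there and 0 in set 2. The Bbs median was 0.93 in set 1 and -0.86 in set 2, so the median gives no direction. Summed, the 8 genes had 146 CPM (92.5 to 219) in ependymal-like cells, against 63.5 CPM in other cells. The sum was 153 CPM in set 1 and 125 CPM in set 2, where it came from Bbs4 and Bbs5 alone. All kept cells had 63.9 and 63.8 CPM in these sets. Tctn3, a tectonic of the transition zone at the cilium's base, had 44.4 CPM (17.9 to 91.5) in ependymal-like cells, against 6.20 CPM in other cells, and was called higher; Tctn1 had 12.7 CPM (1.54 to 45.8), against 8.88 CPM. Of the ciliary Hedgehog genes 0 of 4 were called: Kif7, a kinesin that regulates Gli proteins at the cilium tip, had 2 UMIs in ependymal-like cells, Evc2 had 2, Evc 1, and Gpr161, a receptor that restrains Hedgehog signalling, 0, which allows up to 19.0 CPM. At 53 cells the depth does not show a difference for these 4 genes in either direction.

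Set against astrocyte-like cells alone, a comparison added after the data were seen, 9.14% of genes were called higher in ependymal-like cells and 3.8% lower, 0 of the cilium genes among the lower ones. Motile genes called were 11 of 11, with a median log2 ratio of 3.49, and transport genes 12 of 22, with a median of 0.91. Complex A and B genes made up all 12, and 0 of 8 Bbs genes were called. Each Bbs gene had only 0 to 7 UMIs in ependymal-like cells. Summed, the 8 had 146 CPM (92.5 to 219) there, against 74.5 CPM in astrocyte-like cells. Markers of other cell types were higher there too: the fibroblast list summed to 254 CPM in ependymal-like cells, against 78.8 CPM in astrocyte-like cells (Col1a2 and Fn1 called, 5 of 8 at 0). The pericyte or smooth muscle list summed to 361 CPM, against 81.2 CPM (Cnn1 called, 5 of 8 at 0), and the choroid plexus list to 57.1 CPM, against 3.37 CPM (0 called, 4 of 8 at 0). Their part in the result was not tested. When clusters were drawn without any cilium gene, 51 cells were ependymal-like and the medians were 3.92 for motile and 1.13 for transport genes. With barcode set 2 alone, 7 transport genes were called, and the share of all genes was not computed there.

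**Figure D2:**
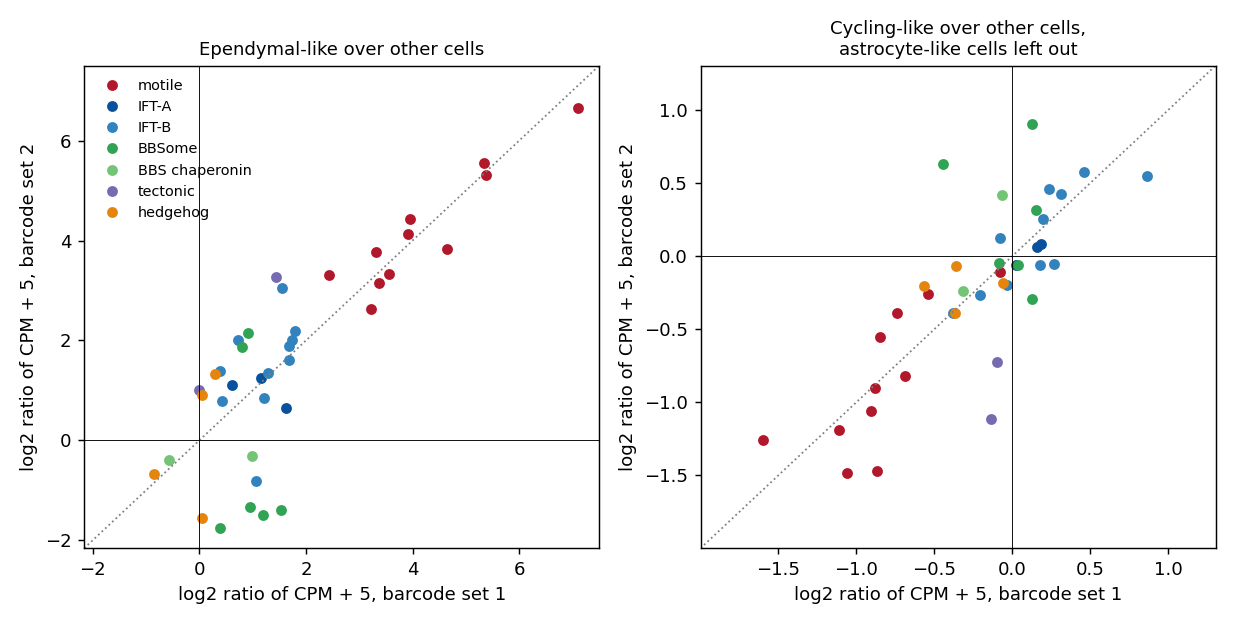
Log2 ratio of CPM + 5 in barcode set 2 against that in set 1, one point per gene, for ependymal-like over other cells (left) and for cycling-like over other cells with astrocyte-like cells left out (right). Left, all motile points lie above 2 on both axes and several Bbs points fall below 0 in set 2; right, motile points lie below 0 and transport points on both sides of it.

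Related cilium genes, listed for their known roles, were set beside the 10.9% of all genes called higher in ependymal-like cells. Of 32 measured further axoneme genes, 30 were called higher in ependymal-like cells, with a median log2 ratio of 2.71; Spag17, a central apparatus protein, had 203 CPM in ependymal-like cells, against 0.182 CPM in other cells, and Dnah11, a dynein arm heavy chain, had 114 CPM, against 3.59 CPM. Of 17 transition zone genes 8 were called higher, with a median of 0.85, among them Tmem107 with 425 CPM in ependymal-like cells, against 103 CPM in other cells. Of 27 further transport and ciliary GTPase genes 10 were called higher, with a median of 0.69, among them the kinesin subunit Kif3a with 273 CPM, against 122 CPM. Of 10 measured regulators of multiciliation and RFX factors 2 were called higher, Ccno on 4 UMIs and Rfx1 on 5, with a median of 0.06 over the list. Trp73, a transcription factor upstream of Foxj1 in multiciliated cells, had only 6 UMIs in all, of which 4 were in ependymal-like cells.

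Promoter sequence around the start of these genes was read for letters of known RFX and forkhead sites. RefSeq promoters (GRCm38.p6, 250 bases before to 50 after each start) matched 34 of the 40 genes. In all, 9 motifs were searched on both strands, and several overlap one another. GTTGCC, a single RFX arm, was present in 17 of the 34, against 3821 of 27025 genes (14.1%): in 6 of 9 motile genes, 8 of 19 transport genes, 2 of 2 tectonics and 1 of 4 Hedgehog genes. The paired form, GTTNCC then NN then GGNAAC, was present in Bbs7, Pifo and Tctn1, against 143 of all genes (0.529%), and a looser one, GTNNCC then NN then GGNAAC, in 7, against 1.49% of all genes. The longer single arms GTTGCC then NNG and GTTGCC then NNGG were present in 13 and 5, against 5.74% and 2.59% of all genes. GTTGCCATG and the full form, GTTGCC then AT then GGCAAC, were present in 0, against 0.877% and 0.0222%. The forkhead letters TGTTTAC were present in 1 (Mlf1), against 4.05%, and TGTTGAC in 3, against 2.88%. A match is only a match of letters. The 7 windows of 80 bases below, chosen after the matches were seen, show the site in 5 motile genes and Ift57, all called higher in ependymal-like cells, and in Bbs7, which was not called; capitals mark GTTGCC, its reverse complement GGCAAC, or the paired form, and each window is read 5′ to 3′ on the gene's strand and ends at or before its RefSeq start.
Pifo, chr3:106001498-106001577, minus strand: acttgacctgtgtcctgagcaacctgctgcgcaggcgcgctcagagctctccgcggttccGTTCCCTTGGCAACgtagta
Ccdc153, chr9:44240488-44240567, plus strand: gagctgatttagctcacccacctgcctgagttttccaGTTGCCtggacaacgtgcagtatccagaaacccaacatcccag
Dynlrb2, chr8:116504927-116505006, plus strand: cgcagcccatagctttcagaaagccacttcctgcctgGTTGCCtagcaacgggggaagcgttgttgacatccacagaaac
Ccdc113, chr8:95534020-95534099, plus strand: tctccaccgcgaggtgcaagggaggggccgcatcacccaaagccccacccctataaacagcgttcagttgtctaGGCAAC
Fam183b, chr11:58801985-58802064, minus strand: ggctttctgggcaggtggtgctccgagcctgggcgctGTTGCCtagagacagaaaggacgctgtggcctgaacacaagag
Ift57, chr16:49699170-49699249, plus strand: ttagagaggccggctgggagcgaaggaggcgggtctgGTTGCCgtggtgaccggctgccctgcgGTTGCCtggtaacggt
Bbs7, chr3:36613464-36613543, minus strand: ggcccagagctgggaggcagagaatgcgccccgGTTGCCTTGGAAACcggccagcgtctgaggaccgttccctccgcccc

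Most motile RNA lay outside the ependymal-like cluster of 53 cells. The shares below were not recomputed for the wider clusters of 356 cells (resolution 1.0) and 403 cells (15 components). Ependymal-like cells held 0.409% of all UMIs, and their share of a motile gene's UMIs ran from 2.81% (Foxj1) to 75.3% (Tmem212), with a median of 7.78%. For transport genes this share ran from 0% to 2.48% (Ift88), with a median of 1.03%. Astrocyte-like cells held 55.4% of all UMIs, and between 13.6% (Tmem212) and 86.4% (Foxj1) of a motile gene's, with a median of 79.1%; for transport genes the median was 61.4%. Tmem212 was thus the most restricted motile gene (67.9 to 81.7% in ependymal-like cells), followed by Ccdc153 (32.3%, 25.1 to 40.2%) and Capsl (20.0%, 16.5 to 23.8%).

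**Figure D3:**
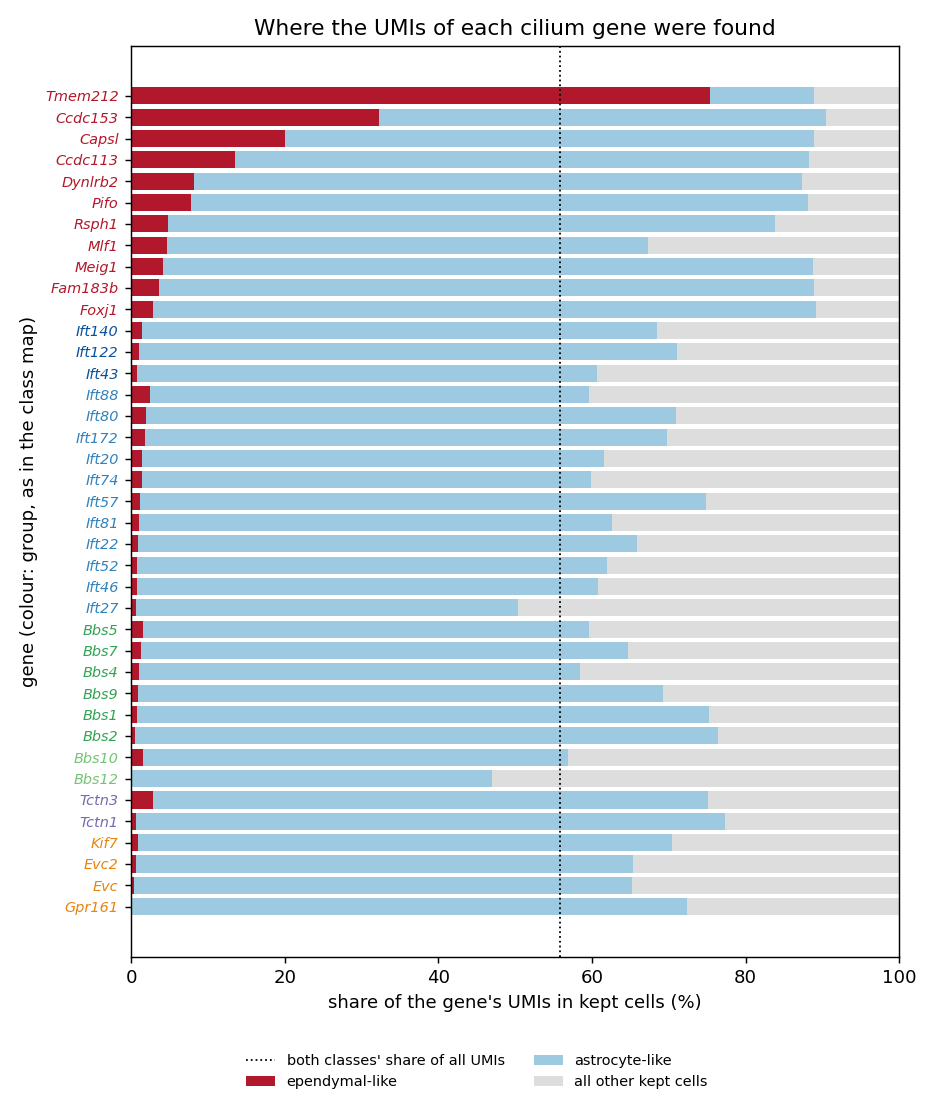
Share of each gene's UMIs (horizontal axis, percent) found in ependymal-like cells, astrocyte-like cells and all other kept cells; the dotted line marks both classes' share of all UMIs. Tmem212 has 75.3% of its UMIs in ependymal-like cells, while Foxj1, Fam183b and Meig1 have over 80% in astrocyte-like cells.

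Cells were compared at equal depth by thinning each to 1500 UMIs and leaving out shallower cells. Foxj1 then had a UMI in 51.1% of 47 ependymal-like cells (36.1 to 65.9%), 14.3% of 6474 astrocyte-like cells (13.4 to 15.1%) and 2.79% of 215 fibroblast-like cells (1.03 to 5.98%), a class not known for motile cilia; before thinning the shares were 60.4%, 24.3% and 5.83%. Tmem212 had a UMI in 66.0% of thinned ependymal-like cells and 0.139% of astrocyte-like cells, at or under the 0.339% in progenitor-like cells, and is read as background there. Ift20 had a UMI in 55.3% of thinned ependymal-like, 27.1% of astrocyte-like, 21.2% of cycling-like and 35.8% of fibroblast-like cells. Foxj1 was thus found more often in astrocyte-like than in fibroblast-like cells and Ift20 less often. Counting intervals of the classes were apart for both genes. Ift20 does not stand for the transport genes here. Ift22 had a UMI in 19.9% of thinned astrocyte-like and 11.2% of fibroblast-like cells, and Ift27 in 20.6% and 13.5%, with intervals apart. Ift52 (5.27% and 6.51%), Ift81 and Ift172 went the way of Ift20, but with overlapping intervals.

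In astrocyte-like cells, 36.3% of all genes were called higher and 19.0% lower than in the other cells. Motile genes called higher were 8 of 11 with a median log2 ratio of 1.11, beside a median of 0.16 over all genes. Foxj1 had 101 CPM (96.5 to 105) in astrocyte-like cells, against 19.6 CPM in other cells, and Fam183b had 137 CPM (132 to 142), against 29.2 CPM. Meig1 had 168 CPM (162 to 174) in astrocyte-like cells, against 38.0 CPM in other cells. Tmem212 was called lower, with 1.03 CPM in astrocyte-like cells, against 8.14 CPM in other cells, which include the ependymal-like ones. Transport genes called higher were 8 of 22 (Ift57, Bbs2, Ift122, Bbs1, Ift80, Ift172, Bbs9 and Ift140), a share near the background, with a median of 0.30. Scaled by median-ratio size factors this median was 0.10 and 5 were called, a setting for which the share of all genes was not computed. The transport level of astrocyte-like cells relative to others thus depends on the scaling. Both tectonics were called higher, and of the Hedgehog genes Gpr161 (4.92 CPM in astrocyte-like cells, against 2.33 CPM) and Kif7 (7.92 CPM, against 4.30 CPM). Of the RFX factors, Rfx4 had 80.9 CPM in astrocyte-like cells, against 30.4 CPM in other cells, Rfx3 had 39.4 CPM, against 14.6 CPM, and Rfx2 had 13.0 CPM, against 2.62 CPM; these 3 and Rfx1 were called higher there.

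The astrocyte-like class joined 2 clusters, of which the second was led by Cldn10 and Gfap and the first by Pcp4 and Agt. The first (3903 cells) was weakly named. It had 4 of 12 astrocyte markers raised and 1 among its 10 leading genes, as many as from another list. The second (3074 cells) had 7 and 3. At resolution 1.0 an Agt-led cluster of 1855 cells had 1 of 12 raised and was unnamed. Between the first and second cluster 5.47% of genes were called higher in the second and 6.75% lower, a comparison added after the data were seen. Motile genes called higher in the second cluster were 3 of 10, Capsl (24.8 CPM, against 8.05 CPM in the first), Pifo (48.0 CPM, against 25.7 CPM) and Ccdc113 (14.0 CPM, against 7.02 CPM). Transport genes summed to 1154 CPM in the second cluster and 1159 CPM in the first, with 0 called higher and 1, Bbs7, lower.

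Detection of several motile genes in 1 cell was used to choose cells without any clustering. At least 3 of the 11 motile genes had a UMI in 1600 cells (12.2%), 1152 in set 1 and 448 in set 2. With every cell thinned to 1500 UMIs 515 cells met this, and without thinning 3332 had at least 2 and 708 at least 4. Of the 1600, 1450 were astrocyte-like and 50 ependymal-like, and their median depth was 3330 UMIs, against 2776 in the other cells; with every cell thinned to 1500 UMIs the transport median given next was 0.51. Motile genes served to choose these cells, and transport genes did not. The 22 transport genes summed to 1411 CPM in the chosen cells, against 1005 CPM in the other cells. Called higher were 11 of 22 and lower 0, against 13.7% and 11.3% of all genes, with a median log2 ratio of 0.46 (0.45 in set 1 and 0.49 in set 2), beside 0.06 over all genes. Ift57, a peripheral complex B subunit, had 48.3 CPM (42.7 to 54.4) in the chosen cells, against 24.7 CPM in other cells, the largest transport ratio. Ift172 (23.9 CPM, against 13.2 CPM), Ift80 (26.9 CPM, against 15.2 CPM) and Ift22 (185 CPM, against 116 CPM) followed. Both tectonics and 0 of the 4 Hedgehog genes were called. With median-ratio size factors 5 transport genes were called, and the share of all genes was not computed there.

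Most of these calls were not made when the comparison was kept to astrocyte-like cells. Within astrocyte-like cells alone, a restriction added after the data were seen, 3.45% of genes were called higher in cells with at least 3 motile genes and 1.82% lower. Of the cilium genes 0 were lower, and of the transport genes 1 of 22 was higher, Bbs5, with 10.2 CPM (7.65 to 13.4), against 6.33 CPM. The median transport log2 ratio was 0.32 (0.30 in set 1 and 0.31 in set 2), and the sum was 1395 CPM in chosen astrocyte-like cells, against 1082 CPM in the others. The further axoneme genes were called higher in 30 of 31 cases there, with a median of 0.70. Without the ependymal-like cells, 11 of 22 transport genes were called higher over the other classes (13.0% of all genes), with a median of 0.44. In cells with a Foxj1 UMI, a choice also added later, 5 of 22 transport genes were called higher (13.3% of all genes were, and 9.22% lower). Within astrocyte-like cells 0 of 22 were called higher (1.64% of all genes were, and 1.04% lower), and 3 of 9 other motile genes, Capsl, Ccdc113 and Dynlrb2.

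The number of motile genes detected in a cell and its transport level went together in small steps. Over all kept cells with 0, 1, 2, 3, 4 and at least 5 motile genes, transport genes summed to 947, 1028, 1138, 1277, 1406 and 1778 CPM. Within astrocyte-like cells alone the sums were 1013, 1089, 1151, 1292, 1420 and 1664 CPM, and both sets showed the order. With every cell thinned to 1500 UMIs, astrocyte-like sums were 1044, 1148, 1275, 1490, 1852 and 1786 CPM, the last over only 28 cells. Over all kept cells the Hedgehog sums also differed, at 22.01, 28.8, 33.9, 33.4, 29.7 and 42.2 CPM, and the tectonic sums were 11.2, 14.0, 17.9, 27.8, 20.5 and 33.4 CPM. Within astrocyte-like cells the Hedgehog genes had sums of 30.3, 32.1, 35.7, 33.6, 29.7 and 44.8 CPM and overlapping intervals.

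**Figure D4:**
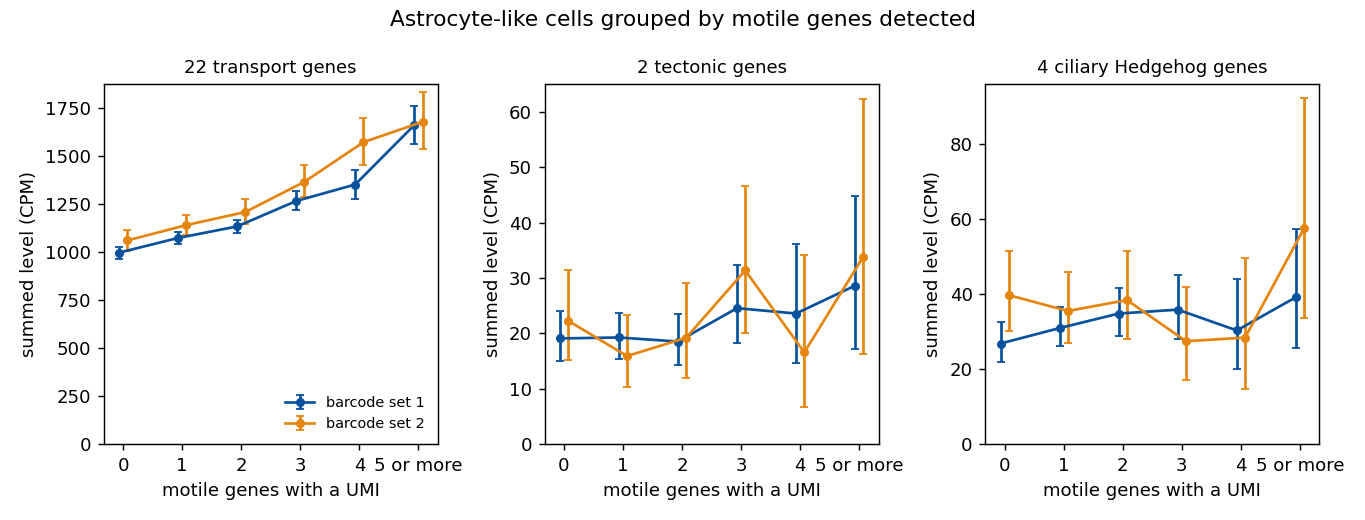
Summed level (CPM) of transport, tectonic and ciliary Hedgehog genes in astrocyte-like cells grouped by how many of the 11 motile genes had a UMI, for each barcode set; bars are exact Poisson 95% intervals. The transport sum climbs in both sets, from 1013 to 1664 CPM over the sets together, while intervals overlap for the other groups of genes.

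Cells with 7 or more motile genes were mostly ependymal-like, and those with fewer were mostly not. All 19 cells with at least 9 motile genes were ependymal-like, as were 33 of 49 with at least 7, the other 16 being astrocyte-like. Of the 308 cells with at least 5, 258 were astrocyte-like and 45 ependymal-like. The motile genes were among the genes used for clustering, so these splits are in part a description of how the classes were drawn. The splits were not recomputed for clusters drawn without any cilium gene. These splits are for the ependymal-like cluster of 53 cells. They were not recomputed for the wider clusters of 356 cells (resolution 1.0) and 403 cells (15 components). The median ependymal-like cell had a UMI of 8 motile genes and the median astrocyte-like cell of 1.

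**Figure D5:**
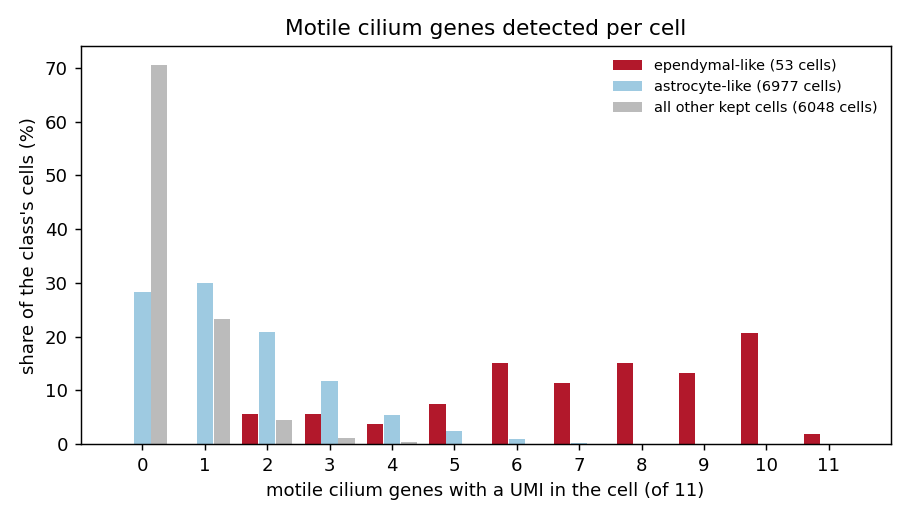
Share of cells (vertical axis, percent of the class) by the number of motile genes with a UMI, for ependymal-like, astrocyte-like and all other kept cells. Astrocyte-like cells taper off by 8 genes, while ependymal-like cells spread from 2 to 11 with a median of 8. The motile genes were among the genes used to draw these classes.

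Motile genes were detected together, also where the gene itself took no part in the choice. Each motile gene was compared between cells with at least 2 of the other 10 and the remaining cells, a check added after the data were seen. Over all kept cells the CPM ratio ran from 2.44-fold (Mlf1) to 13.5-fold (Tmem212). Within astrocyte-like cells it ran from 1.19-fold (Tmem212) to 3.73-fold (Capsl), with Foxj1 at 1.41-fold (123 CPM in the chosen cells, against 87.1 CPM). The chosen cells were deeper, with medians of 3226 UMIs against 2719 for Capsl, for example; the part of depth in these ratios was not tested.

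Cycling-like cells, led by mitotic genes, had little motile RNA and about as much transport RNA as other cells. In them 37.1% of all genes were called lower and 11.5% higher, and the median over all genes was -0.24. Motile genes called lower were 10 of 11, with a median log2 ratio of -1.43. Foxj1 had 8.58 CPM (5.83 to 12.2) in cycling-like cells, against 70.3 CPM in other cells, and Meig1 had 16.9 CPM (12.9 to 21.7), against 120 CPM. Mlf1, a gene first found in a leukaemia fusion, was the exception with 42.6 CPM (36.1 to 49.9) in cycling-like cells, against 55.1 CPM. Transport genes called lower were 4 of 22 (Bbs1, Bbs2, Ift52 and Ift57) and 0 higher, with a median of -0.17, which is above that of all genes. Both tectonics and 3 of 4 Hedgehog genes (Evc, Evc2 and Kif7) were called lower, with Evc, a regulator of Smoothened signalling at the cilium base, at 4.15 CPM in cycling-like cells, against 8.96 CPM.

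The transport difference in cycling-like cells turned with the comparison. Without astrocyte-like cells, a comparison added after the data were seen, 22.6% of genes were called lower and 6.34% higher. The transport median was then 0.11, with 0 of 21 measured genes called lower and 2 higher, Ift80 (19.9 CPM in cycling-like cells, against 9.49 CPM) and Bbs9 (8.30 CPM, against 5.45 CPM). Motile genes called lower were still 10 of 11, with a median of -0.89. The comparison cells included the ependymal-like cells (6424 CPM of motile genes), the unnamed shallow and low-oxygen clusters (500 and 318 CPM) and an unnamed cluster of 1428 cells led by S phase genes (112 CPM). The cycling-like motile sum of 117 CPM (106 to 128) lay close to that of this S phase cluster, OPC-like cells (114 CPM) and fibroblast-like cells (119 CPM), so a low motile level was not particular to cycling-like cells. Taking instead cells with a UMI of Mki67, Top2a, Cdk1, Ube2c or Cenpf against cells with none, 29.1% of genes were called lower, among them 10 of 11 motile genes and 1 of 22 transport genes. Within astrocyte-like cells that choice called 0 of 10 motile genes lower, where 1.01% of all genes were (1.5% were higher, Bbs10 among them).

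Dynlrb2 has a close paralogue, Dynlrb1, the roadblock light chain of cytoplasmic dynein in most cells. Dynlrb2 had 266 CPM (192 to 360) in ependymal-like cells, 19.2 CPM in astrocyte-like cells and 0 to 3.88 CPM in the other named classes. Dynlrb1 had 457 CPM (357 to 575) in ependymal-like cells, 591 CPM in astrocyte-like cells and 291 to 566 CPM in the others. The class pattern of Dynlrb2 was thus not seen in Dynlrb1, although how reads that match both genes were counted is not stated in any label or file used. In the GENCODE M21 annotation, 13 of the 40 genes overlap a gene on the opposite strand, among them Ift88 (chr14:57424062-57517936, plus strand) with Ift88os, and Ift74, Ift57, Ift81, Bbs4, Pifo and Mlf1, and 0 overlap one on the same strand; whether counting used the strand is not stated, so these genes' counts could include an overlapping gene's reads.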

How the data were processed

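The authors deposited raw UMI counts, whole numbers for each gene in each barcode; per the submitters' processing notes they came from Cell Ranger 2.1.1 on mm10, and per the labels' protocols from the 10x 3′ kit, version 1. The authors' matrix pools both libraries (41462326 UMIs, 14685 barcodes).

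Barcodes with under 500 genes or over 10% mitochondrial UMIs (1407) and 200 doublets called by Scrublet (scanpy 1.11.5) were left out. Scrublet marked 1.92% of set 1 and 0.323% of set 2, against 7.90% and 2.73% expected at 0.8% per 1000 cells. Many doublets may thus remain in both sets. Counts were scaled to 10000 per cell; 2000 variable genes, 30 components, 15 neighbours and Leiden resolution 0.5 (leidenalg 0.10.2) gave the clusters. The neighbour search was changed from approximate to exact, and rounding and fixed arithmetic were added, so that reruns match; this came after a first clustering and its leading genes had been seen, in which the ependymal-like cluster was larger; that run also had other doublet calls and is not reproduced here. The approximate search is among the added alternatives.

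Clusters were named from 13 marker lists when at least 3 markers with at least 10 UMIs were 2-fold up and its 10 leading genes did not hold more markers of any other list. Levels are CPM, log2 ratios use CPM + 5, and a count of 0 allows up to 3 counts. No model or p-value was computed, as 1 pooled matrix is 1 sample. The ratio code was tested on simulated data.

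The genes described, the lists and the rules were chosen with earlier results of these data known. Named are all genes matched by the symbol rule and genes of the 5 cilium lists; others, the 9 promoter motifs and the 7 windows printed were chosen after values were seen. IDs were matched to GENCODE M21 (28339 of 28692 found). Alternatives cover the filter, sets, scaling, UMI minimum, pseudocount, thinning, clustering and cell choice. Python 3.11.15, numpy 2.4.6, scipy 1.17.1, pandas 2.3.3, scikit-learn 1.9.0, python-igraph 0.11.9 and matplotlib 3.10.9 were used.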

Additional observations from a re-analysis of the deposited data

How the results depend on the processing

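Medians and counts were recomputed under the alternatives that bear on them: settings of the added CPM and thinning gave medians only, and clustering settings did not bear on the choice by motile genes. Of these values 169 were taken as unmoved, 25 moved and 1 changed sign. A count was unmoved within 1.5 times. A median was unmoved within the counting interval half-width of the single gene or genes at the median, not of the whole group. In the 53 ependymal-like cells this allowance is wide. Transport medians of 0.67, 0.73 and 0.77 against 1.16 were taken as unmoved there. Ependymal-like cells numbered 53 in the approximate neighbour search on the same kept cells, which did not bring back the larger cluster of the first run, 72 with no cell filter, 153 with called doublets kept, 356 at resolution 1.0 and 403 with 15 components. The ependymal-like motile median was 2.98 at resolution 1.0, 3.01 with 15 components, 3.25 with 20 CPM added and 3.49 against astrocyte-like cells alone; the transport median was 0.67, 0.73 and 0.77 under the first 3 of these; 7 transport genes were called higher in set 2 alone. In cells with at least 3 motile genes, 5 transport genes were called with median-ratio size factors and 1 within astrocyte-like cells. In astrocyte-like cells the motile median was 1.47 in set 2 alone, 0.94 with size factors, 1.48 and 0.58 with 1 and 20 CPM added, 0.44 at resolution 1.0, 0.31 with 15 components (5 called) and 0.68 with doublets kept; the transport median was 0.46 in set 2 alone and 0.10 with size factors, and 5 transport genes were called with size factors and 5 at resolution 1.0. In cycling-like cells the motile median was -2.01 in set 2 alone, -2.32 and -0.62 with 1 and 20 CPM added and -0.89 without astrocyte-like cells, and 2 transport genes were called lower with size factors. Without astrocyte-like cells the cycling-like transport median turned to 0.11 with 0 called lower, and Bbs2 (0.21), Ift57 (0.18) and Bbs1 (0.0075) changed sign. The cause of these moves was not tested. Where no share of all genes called is given above, it was not computed for these alternatives. No paired analysis was possible because the barcodes are not tied to the 2 libraries. Depth limits the Bbs and Hedgehog genes in ependymal-like cells, with 0 to 7 UMIs each.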

Other observations

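Some unnamed cells also held motile RNA. An unnamed cluster of 540 shallow cells (median 1089 UMIs) had a motile sum of 500 CPM (448 to 556). This was below the 651 CPM (640 to 662) of astrocyte-like cells, and only 3.33% of the cluster's cells had at least 3 motile genes. A cluster of 357 cells led by the low-oxygen genes Car9 and Adm had 318 CPM (283 to 355), while cycling-like, OPC-like and progenitor-like cells had 117, 114 and 141 CPM. Transport sums were 869 CPM in the shallow cluster and 940 CPM in the low-oxygen one.

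Among genes outside the symbol rule, those with the largest ratio in cells with at least 3 motile genes (at least 20 UMIs and 25% of those cells) were led by Cfap126 with 217 CPM (205 to 230) in these cells, against 47.0 CPM in other cells. Enkur (4.01-fold), Riiad1 (3.87-fold) and Tppp3 (3.30-fold) followed, all 4 being on the ependymal marker list, and then Nmb, which encodes the peptide neuromedin B, at 3.16-fold.

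Barcodes left out by the cell filter had a motile sum of 417 CPM, against 452 CPM in kept cells, and a transport sum of 788 CPM, against 1064 CPM; 3.48% of them had at least 3 motile genes, against 12.2% of kept cells. Their shallow depth was not adjusted for.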
